A study of Homo sapiens with 12 samples.

Results

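The miR-99, miR-100 and miR-125 precursors are 6 human genes, MIR99A, MIR99B, MIR100, MIR125A, MIR125B1 and MIR125B2, each of which lies near a let-7 precursor in 1 of 3 clusters. They were chosen by gene name as the partners of let-7 in these clusters, and their rows were found through Ensembl identifiers. All 6 were among the 1881 precursor rows. MIR99B, MIR100, MIR125A, MIR125B1 and MIR125B2 were among the 175 precursors with enough counts to be tested, and MIR99A was not.
Small RNA was sequenced from A375, a human melanoma line with an activating BRAF mutation that responds to the BRAF inhibitor dabrafenib, and from A375-BIR, a dabrafenib-resistant line derived from it. Cells of each line were kept for 48 h in 200 nM dabrafenib or in 0.1% DMSO, the vehicle. There were 3 libraries for each line and treatment, labelled as biological replicates, and 12 libraries in all. A375-BIR is a single population that grew out in rising concentrations of dabrafenib, so a difference between the lines is a difference between these populations.
The expected counts of all precursors summed to between 35070 and 122792 per library, and the dabrafenib libraries, at 35070 to 59899, were smaller than the DMSO libraries. Values below are CPM, counts relative to a library total scaled by edgeR's TMM factor, unless another scale is named, and error terms are the SD over 3 libraries or the standard error (SE) of a fold change. A difference was called at a false discovery rate (FDR) under 0.05 over all 175 tested precursors. These are bulk cultures, so fewer cells with a transcript and less of it in each cell cannot be told apart.

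MicroRNAs are cut from hairpin precursors by Drosha and Dicer and guide Argonaute proteins to messenger RNAs that match the seed near their 5′ end. The grouping of a miR-100 relative, a let-7 and a miR-125 on the same transcript is ancient, and miR-125 is related to lin-4, the founding microRNA of nematode development. Members of the miR-99 and miR-100 family are known to repress MTOR, and let-7 is a repressor of RAS genes and of growth factors of embryonic cells.
The mature sequences are shown because they set which members share targets and which share reads. They are written 5′ to 3′ as given by RefSeq for GRCh38.p14, with the seed, bases 2 to 8, in capitals. The first set shares the miR-99 and miR-100 seed, the next the miR-125 seed.
miR-100-5p: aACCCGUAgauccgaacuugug
miR-99a-5p: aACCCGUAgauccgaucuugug
miR-99b-5p: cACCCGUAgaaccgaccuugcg
miR-125b-5p: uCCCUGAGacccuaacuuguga
miR-125a-5p: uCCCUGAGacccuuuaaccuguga
Counted from 1 at the 5′ end, miR-100 and miR-99a differ by A16U alone, while miR-99b differs from miR-100 by A1C, U11A, A16C and U21C. MIR125B1 and MIR125B2 give the same miR-125b-5p, whose first 13 bases are also those of miR-125a-5p. Among 2370 mature names in the RefSeq table, 3 have the miR-99 and miR-100 seed, and 3 have the miR-125 seed. The miR-125 seed is also that of miR-4319, whose precursor MIR4319 had 0 counts over the 12 libraries.
The arms opposite to miR-125b-5p tell the copies apart, and they have different seeds.
miR-125b-1-3p: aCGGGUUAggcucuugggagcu
miR-125b-2-3p: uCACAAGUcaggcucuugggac
A value here belongs to a precursor, so both arms are counted together. The expected counts of MIR125B1 and MIR125B2 were fractional in 4 of 12 libraries, yet their difference was a whole number, within 0.02, in all 12. Reads that fit both copies were divided between them by the counting program, and the separate values of MIR125B1 and MIR125B2 are uncertain for that reason. MIR125A was fractional in 4 libraries and MIR99B in 2, so some of their reads were divided as well. With which rows they were divided was not tested. The let-7 partners of the clusters share a seed of their own.
let-7a-5p: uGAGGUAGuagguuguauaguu
let-7c-5p: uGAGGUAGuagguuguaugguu
let-7e-5p: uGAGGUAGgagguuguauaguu
From let-7a to let-7c the only difference is A19G, and from let-7a to let-7e it is U9G.

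In GENCODE v44 (hg38), the chromosome 11 cluster spans 52.6 kb on the minus strand and holds MIR100 (ENSG00000207994.1, chr11:122152229-122152308), MIRLET7A2 and MIR125B1 (ENSG00000207971.1, chr11:122099757-122099844), all within introns of the long noncoding RNA gene MIR100HG. The chromosome 21 cluster spans 51.2 kb on the plus strand, within MIR99AHG. There MIR99A (ENSG00000207638.1, chr21:16539089-16539169) is intronic, and MIR125B2 (ENSG00000207863.1, chr21:16590237-16590325) overlaps an exon in 3 of the 128 MIR99AHG transcripts that span it. The chromosome 19 cluster spans only 728 bases on the plus strand, within SPACA6. MIR99B (ENSG00000207550.1, chr19:51692612-51692681) lies in an intron, and MIR125A (ENSG00000208008.1, chr19:51693254-51693339) overlaps an exon in 1 of 3 SPACA6 transcripts, while both overlap an exon of the antisense gene SPACA6-AS1.

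Per base of the mature sequence, MIR100 had the highest mean of the members in every group and MIR99A the lowest, although libraries of MIR100 and MIR125A overlapped in A375 in dabrafenib and in A375-BIR in DMSO. In CPM per mature base, MIR100 stood at 105.1 ± 13.2 (SD of 3 libraries, here and below) in A375 in DMSO, 98.8 ± 19.1 in A375 in dabrafenib, 261 ± 110 in A375-BIR in DMSO and 279 ± 75.7 in A375-BIR in dabrafenib. Next came MIR125A, at 57.3 ± 7.75, 76.2 ± 21.3, 87.9 ± 70.7 and 81.5 ± 22.5 CPM per base in the same order of groups. That place of MIR125A in A375-BIR in DMSO rests on replicate 3. Without it, a choice made after seeing the data, MIR125A averaged 47.1 CPM per base, with both libraries below all those of MIR125B1, which averaged 70.7. In A375-BIR in dabrafenib the libraries of MIR125A and MIR125B1 overlapped, and without replicate 1 their order turned, at 69.9 against 72.4, whereas in A375 in DMSO the 3 libraries of MIR125A lay above those of MIR125B1. In A375 in dabrafenib MIR125A overlapped the next member, MIR99B, at 56.5 to 98.7 against 33.2 to 79.5 CPM per base. MIR99B and MIR125B1 changed places between groups: MIR125B1 had the higher mean in A375 in DMSO, with overlapping libraries, and MIR99B in A375 in dabrafenib, at 51.2 ± 24.8 against 25.1 ± 2.86 CPM per base, without overlap.
In total, the 6 members took 0.583% ± 0.0504 (SD of 3 libraries) of the expected counts of A375 in DMSO and 1.26% ± 0.594 of those of A375-BIR in DMSO. The precursor with the highest mean over the 12 libraries, MIRLET7B, had 189890 CPM, against 4096 CPM for MIR100. Both have mature sequences of about the same length. In A375 in DMSO, MIRLET7I had a higher mean than MIRLET7B, at 179999 against 178770 CPM.

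**Figure D1:**
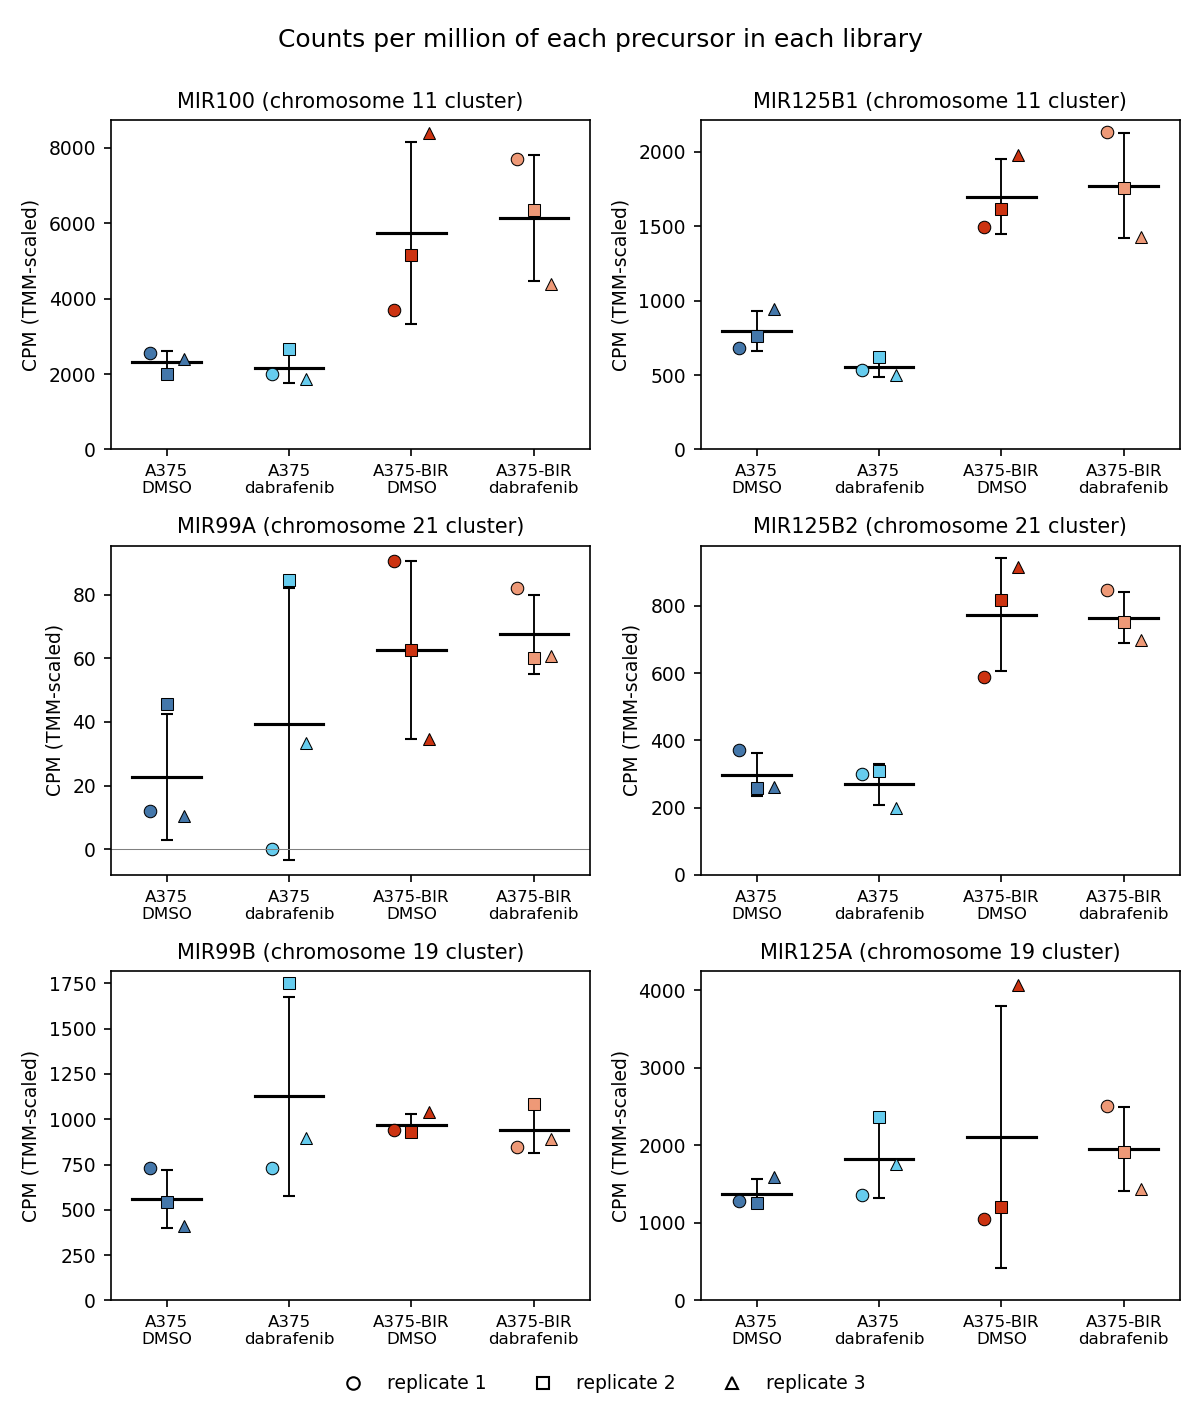
CPM (TMM-scaled, linear axis) of each precursor in each library, by line and treatment, with symbols for replicate numbers, horizontal bars for group means and vertical bars for the SD (n = 3). MIR100, MIR125B1 and MIR125B2 have all 6 A375 libraries beneath their lowest A375-BIR library, and MIR125A has a single library, A375-BIR in DMSO replicate 3, at 4066 CPM.

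The library A375-BIR in DMSO replicate 3 stood apart for the members. MIR125A was 3.59 times the mean of the other A375-BIR libraries in DMSO there, MIR100 1.90 times, MIR125B2 1.30 times, MIR125B1 1.27 times and MIR99B 1.11 times. Over all 175 tested precursors it was not exceptional: 16 were over 2 times the mean of the other replicates and 10 under 0.5 times, against 21 and 12 in A375 in dabrafenib replicate 2, where MIR99B was 2.15 times that mean, and 21 and 16 in A375-BIR in dabrafenib replicate 1. Fold changes that turn on the library are given with and without it.

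MIR100 and MIR125B1, which flank MIRLET7A2 on chromosome 11, were lower in A375 than in A375-BIR in both treatments. MIR100 had 2550.2, 1989 and 2397 CPM in A375 in DMSO (replicates 1 to 3) and 2008, 2652 and 1861 CPM in A375 in dabrafenib. In A375-BIR it had 3696, 5152 and 8402 CPM in DMSO and 7702, 6347 and 4389 CPM in dabrafenib. The lowest A375-BIR library was above the highest A375 library, and the spread was wide in A375-BIR, where DMSO replicate 3 was highest and DMSO replicate 1 lowest.
MIR125B1 had 682, 759 and 946 CPM in A375 in DMSO and 535, 621 and 498 CPM in A375 in dabrafenib. In A375-BIR it had 1495, 1617 and 1981 CPM in DMSO and 2130.3, 1759.8 and 1426 CPM in dabrafenib. Its lines did not overlap either, and within A375 the dabrafenib libraries all lay below the DMSO libraries.
Over both treatments, 3 of the 6 members were called between the lines and all 3 were lower in A375 (edgeR's quasi-likelihood test), where 60.0% of the 175 tested precursors were called and 34.3% were called lower. That many precursors differed means that a call by itself does not set the members apart from the rest. The median log2 fold change of A375 over A375-BIR was -1.39 over the 5 tested members and -0.11 over all tested precursors. MIR100 was at -1.41 ± 0.20 (SE), or 2.65-fold lower in A375 (FDR = 4.12e-05), and MIR125B1 at -1.39 ± 0.15, or 2.61-fold lower (FDR = 3.74e-06), each in 6 of 6 A375 libraries.
In DMSO, 4 of the 5 tested members were called, all lower in A375, against 46.3% of tested precursors called and 30.3% called lower. MIR100 was at -1.32 ± 0.28 there (FDR = 0.0014) and MIR125B1 at -1.09 ± 0.20 (FDR = 5.41e-04). In dabrafenib, 3 of the 5 tested members were called, all lower in A375, against 46.3% called and 22.3% called lower. MIR100 was at -1.49 ± 0.30 (FDR = 0.00102) and MIR125B1 at -1.68 ± 0.24 (FDR = 5.68e-05).
MIR100 in DMSO was at -0.93 without A375-BIR in DMSO replicate 3 and remained called (FDR between 1.67e-09 and 0.00992 over 22 alternatives). MIRLET7A2, the let-7a precursor between them, was lower in A375 as well, but by less, at -0.51 ± 0.08 over both treatments (FDR = 5.11e-05), and its reads are shared with MIRLET7A1 and MIRLET7A3, which give the same mature let-7a.

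On chromosome 21, MIR125B2, the other source of miR-125b, had 371, 258 and 263 CPM in A375 in DMSO and 299.9, 310.4 and 199 CPM in A375 in dabrafenib. In A375-BIR it had 589, 818 and 916 CPM in DMSO and 847, 752 and 698 CPM in dabrafenib. Every A375 library was below every A375-BIR library. MIR125B2 was at -1.42 ± 0.18 over both treatments (2.67-fold lower in A375, FDR = 1.31e-05), -1.39 ± 0.22 in DMSO (FDR = 1.70e-04) and -1.44 ± 0.28 in dabrafenib (FDR = 9.45e-04).
Since the copies share reads, their sum does not depend on how reads were divided between them. It can still depend on reads divided with other rows. In A375-BIR in DMSO replicate 2, MIR125B1 had 206.25 counts, MIR125B2 104.25 and MIR125A 154.5. Summed before the test, MIR125B1 and MIR125B2 were at -1.40 ± 0.14 over both treatments (FDR = 1.40e-06), -1.18 ± 0.19 in DMSO (FDR = 1.75e-04) and -1.62 ± 0.21 in dabrafenib (FDR = 3.48e-05).
MIR99A, the miR-100 relative of this cluster, was near the limit of detection. Its expected counts were 1, 6 and 1 in A375 in DMSO, 0, 3 and 1 in A375 in dabrafenib, 10, 8 and 5 in A375-BIR in DMSO and 3, 4 and 3 in A375-BIR in dabrafenib. The 0 in A375 in dabrafenib replicate 1 allows up to 63.1 CPM of the library total (3 counts, counting error only), above 2 of the 6 A375-BIR values, and the lines overlapped. The 6 A375 libraries held 12 counts and the 6 A375-BIR libraries 33. When the line labels were permuted within treatments, a two-sided exact test chosen after these counts were seen, p was 0.015 for 26.5 against 69.4 CPM of the library total (unadjusted, 400 arrangements, smallest p 0.005), and in DMSO alone or dabrafenib alone 0.2 and 0.1, the latter the smallest of 3 against 3. In edgeR with a looser filter (1 CPM or more in 3 or more libraries), MIR99A was at -1.14 and was not called (FDR = 0.195), so a line difference of MIR99A was not resolved at this depth.
MIRLET7C, between MIR99A and MIR125B2, had the lowest log2 fold change of the let-7 partners, at -1.71 ± 0.11 over both treatments (3.28-fold lower in A375, FDR = 7.56e-09, in 6 of 6 A375 libraries). Its expected counts were fractional, so some of its reads were divided with other rows.

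The chromosome 19 members had a smaller difference between the lines. MIR99B had 730.3, 542 and 410.0 CPM in A375 in DMSO and 730.1, 1749 and 897 CPM in A375 in dabrafenib. In A375-BIR it had 942, 929 and 1037 CPM in DMSO and 847, 1083 and 890.0 CPM in dabrafenib. In DMSO the A375 libraries all lay below the A375-BIR libraries, and in dabrafenib the lines overlapped, with A375 replicate 2 the highest of all.
MIR99B was the additional member called in DMSO, at -0.80 ± 0.28, or 1.74-fold lower in A375 (FDR = 0.0296, in 3 of 3 libraries). With DESeq2's Wald test it was at -0.61 and the call was lost (FDR = 0.0891), as it was without A375 in DMSO replicate 3, at -0.62 (FDR = 0.132; between 0.00688 and 0.132 over 22 alternatives). Without A375-BIR in DMSO replicate 1 or A375 in DMSO replicate 2 the call was lost too (FDR = 0.0558 and 0.0926), although the values of -0.81 and -0.77 were near that with all libraries. In dabrafenib MIR99B was at 0.25 ± 0.30 (FDR = 0.523), turning to -0.26 with total counts in place of TMM, and over both treatments at -0.27 ± 0.20 (FDR = 0.266), or -0.53 and called with total counts (FDR = 0.029) and -0.51 and called without A375 in dabrafenib replicate 2 (FDR = 0.0201; between 0.0201 and 0.516 over 21 alternatives).
MIR125A had 1281, 1257 and 1590.2 CPM in A375 in DMSO and 1356, 2370 and 1761 CPM in A375 in dabrafenib. In A375-BIR it had 1051, 1212 and 4066 CPM in DMSO and 2513, 1918 and 1436 CPM in dabrafenib. The lines overlapped in both treatments, and without the value of 4066 CPM the A375-BIR libraries in DMSO lay below those of A375.
MIR125A was at -0.36 ± 0.30 over both treatments (FDR = 0.321), -0.62 ± 0.42 in DMSO (FDR = 0.229) and -0.09 ± 0.44 in dabrafenib (FDR = 0.913). Without A375-BIR in DMSO replicate 3 it turned to 0.11 over both treatments (FDR = 0.502) and to 0.30 in DMSO (FDR = 0.265). The looser filter made MIR125A a call over both treatments, at -0.48 (FDR = 0.0196), and in DMSO, at -0.64 (FDR = 0.0287; between 0.0149 and 0.631 over 22 alternatives). With that filter and without the same library, an alternative chosen after seeing the data, it was at 0.20 in DMSO (FDR = 0.631). MIRLET7E, the partner of MIR99B and MIR125A, was at -0.20 ± 0.15 over both treatments (FDR = 0.251), and was called only with total counts, at -0.44 (FDR = 0.0329; up to 0.659 over 21 alternatives).

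**Figure D2:**
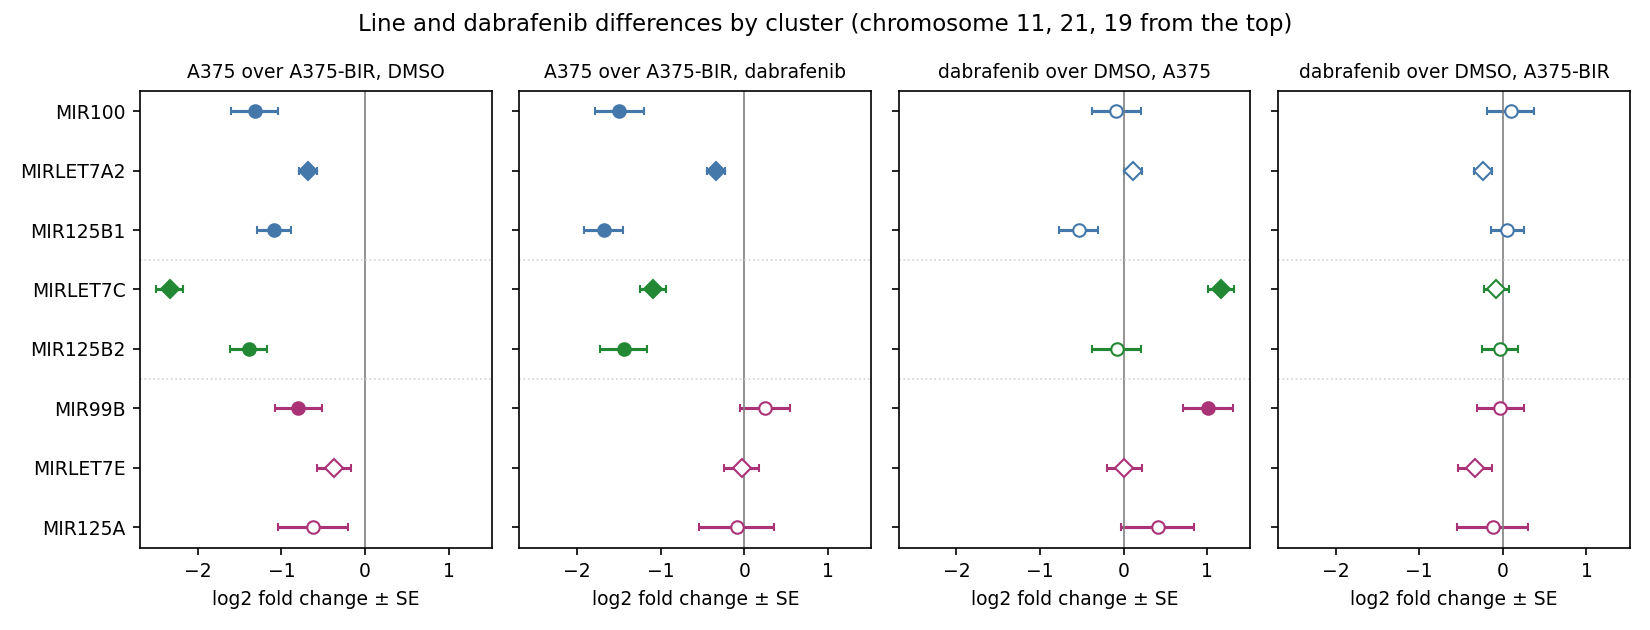
Log2 fold change (horizontal axis) with its SE for the tested members (circles) and the let-7 partners (diamonds), from the chromosome 11, 21 and 19 clusters, in 4 comparisons from edgeR. Filled symbols passed an FDR under 0.05: MIR100, MIR125B1 and MIR125B2 did so between the lines in both treatments, while MIR99B did so between the lines in DMSO, at -0.80, and for dabrafenib in A375, at 1.01, but lost both calls under other settings.

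Ratios within a library do not depend on how libraries are scaled, and they compare clusters for members with the same seed. The log2 ratio of MIR125A to MIR125B1 plus MIR125B2 was 0.28, 0.30 and 0.39 in A375 in DMSO and 0.69, 1.33 and 1.32 in A375 in dabrafenib. In A375-BIR it was -0.98, -1.005 and 0.49 in DMSO and -0.24, -0.39 and -0.56 in dabrafenib. Apart from A375-BIR in DMSO replicate 3, where MIR125A was high, each A375 library had more counts of MIR125A than of both miR-125b precursors and each A375-BIR library fewer.
The mean ratio was higher in A375 by 1.17 on the log2 scale, or 2.25-fold (exact permutation p = 0.02, two-sided, with line labels exchanged within treatments; adjusted p = 0.04 by Benjamini-Hochberg over 4 ratios; 400 arrangements, smallest p 0.005). Without A375-BIR in DMSO replicate 3 the difference was 1.42 (exact permutation p = 0.005, the smallest possible). When labels were exchanged only between libraries of the same number, as a replicate block, the difference of 1.17 had an exact permutation p of 0.0625 over 64 arrangements.
For the miR-99 and miR-100 seed, the log2 ratio of MIR99B to MIR100 was -1.80, -1.87 and -2.53 in A375 in DMSO and -1.44, -0.60 and -1.04 in A375 in dabrafenib. In A375-BIR it was -1.97, -2.47 and -3.01 in DMSO and -3.16, -2.54 and -2.29 in dabrafenib. The lines overlapped in DMSO, although A375 had the higher ratio at each of the 3 replicate numbers, and did not overlap in dabrafenib, where every A375 library had the higher ratio. The difference between the lines was 1.03, or 2.04-fold (exact permutation p = 0.015, adjusted p = 0.04). Within DMSO alone it was 0.42 and within dabrafenib alone 1.64, for which 3 against 3 libraries cannot give an exact permutation p under 0.1 (p = 0.3 and 0.1).
Between chromosomes 21 and 11 no such difference was found. The log2 ratio of MIR125B2 to MIR125B1 differed by -0.05 between the lines (exact permutation p = 0.81, adjusted p = 0.81), with all 12 libraries between -1.83 and -0.81. That of MIR99A to MIR100 differed by 0.20 (exact permutation p = 0.76, adjusted p = 0.81), with libraries between -7.79 and -4.75, so that MIR99A was a small part of its family in both lines. The division of shared reads bears on the ratio of MIR125B2 to MIR125B1, and its part in that ratio was not tested. Divided reads of MIR125A and MIR99B, fractional in 4 and 2 of 12 libraries, can bear on their ratios too, which was not tested either.

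**Figure D3:**
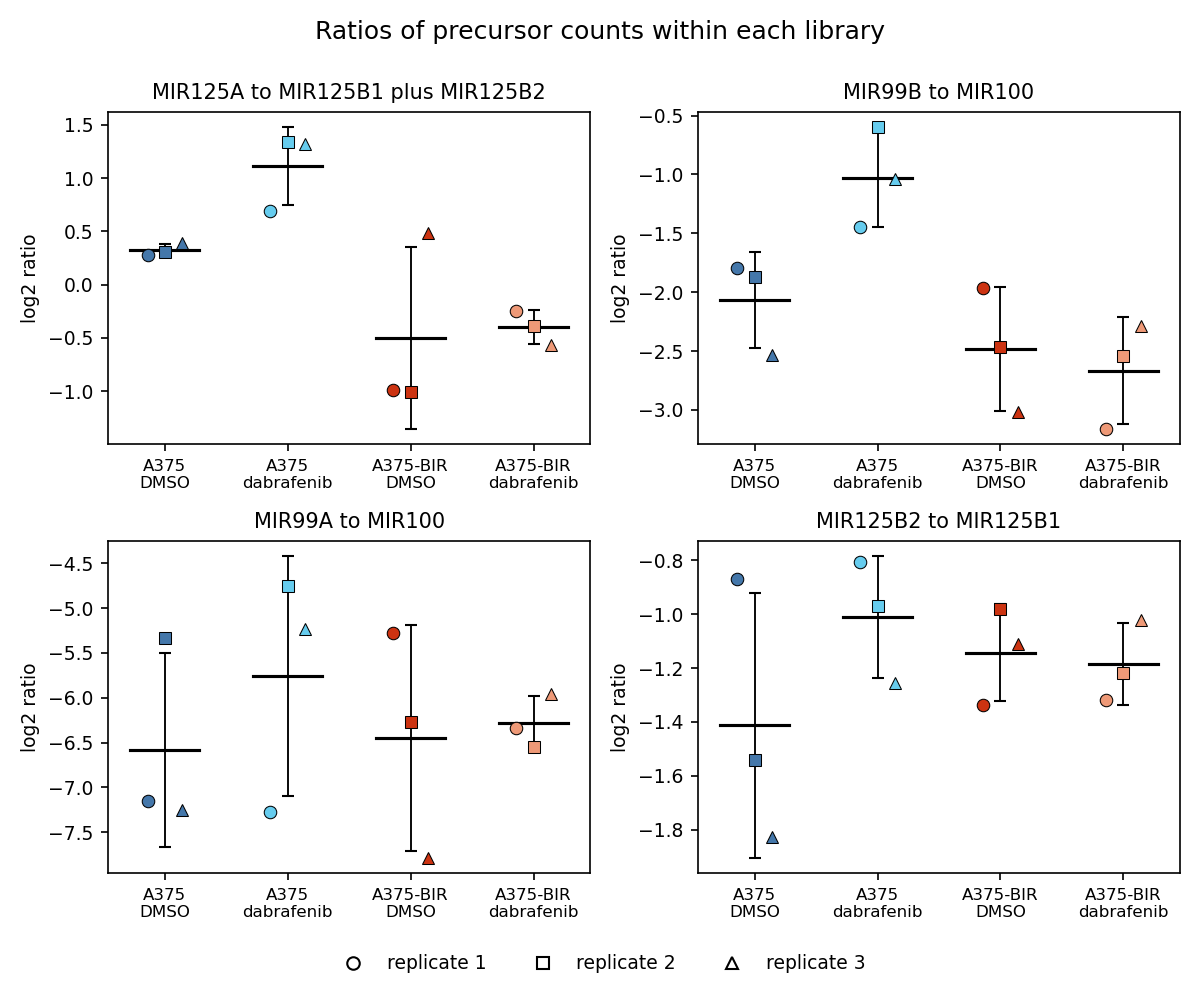
Log2 ratio of precursor counts within each library (vertical axes, 0.5 added to each count) for pairs with the same seed, with symbols for replicate numbers, horizontal bars for means and vertical bars for the SD (n = 3). The ratio of MIR125A to the miR-125b precursors is above 0 in every A375 library and below 0 in every A375-BIR library but DMSO replicate 3, at 0.49.

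As shares of the members' expected counts, not scaled by length, the clusters divided differently in the lines. The chromosome 19 pair held 36.1% ± 0.808 in A375 in DMSO and 48.6% ± 5.57 in A375 in dabrafenib, (SD, n = 3 each), against 26.1% ± 4.64 in A375-BIR in DMSO and 23.8% to 26.1% in A375-BIR in dabrafenib. The chromosome 11 pair held 57.9% ± 1.48 and 46.2% ± 4.90 in A375, against 66.1% ± 2.99 and 67.7% ± 2.17 in A375-BIR. MIR99A and MIR125B2 together held between 4.43% and 8.99% in the 12 libraries.

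For the response to dabrafenib in A375, 1 of the 5 tested members was called, in the higher direction, against 25.1% of tested precursors called and 18.3% called higher. This was MIR99B, at 1.01 ± 0.30 for dabrafenib over DMSO, or 2.02-fold higher (FDR = 0.0231), with 3 of 3 dabrafenib libraries above the DMSO mean and 2 of 3 above every DMSO library. The call was lost without any of 3 single libraries: without A375 in dabrafenib replicate 2 it was at 0.54 (FDR = 0.196), and without A375 in DMSO replicate 2 or 3 at 0.99 and 0.84 (FDR = 0.0783 and 0.0887; between 0.00712 and 0.29 over 22 alternatives).
The scaling of the A375 dabrafenib libraries weighed on this comparison. Their TMM factors were between 0.693 and 0.822, those of the other libraries between 1.04 and 1.19, and scaling by total counts moved the median over all tested precursors for dabrafenib in A375 by -0.50. DESeq2's Wald test put MIR99B at 0.77, not called (FDR = 0.0738), and MIR125B1 at -0.74, called (FDR = 0.0493). With total counts MIR99B was at 0.49 and not called (FDR = 0.189), and MIR125B1 was called in its place, at -1.04 (FDR = 0.00544). With TMM and all libraries, MIR125B1 was at -0.54 ± 0.24 and not called (FDR = 0.132; between 0.00392 and 0.321 over 21 alternatives), although its 3 dabrafenib libraries lay below the DMSO libraries. Other settings likewise called MIR125B1 and lost MIR99B. The looser filter gave -0.95 (FDR = 0.00966) and 0.57 (FDR = 0.183), and no filter -0.93 (FDR = 0.0263) and 0.59 (FDR = 0.29), and these filters moved the median over all tested precursors by -0.41 and -0.40. A fit of only the A375 libraries gave -0.74 (FDR = 0.0139) and 0.79 (FDR = 0.0525), and DESeq2's size factors, which moved the median by -0.20, gave -0.74 (FDR = 0.0114) and 0.77 (FDR = 0.0524). Without A375-BIR in DMSO replicate 3, MIR125B1 was at -0.59 and called (FDR = 0.0402). Summed with MIR125B2, which removes the division of reads between these copies, MIR125B1 was at -0.41 ± 0.21 and not called (FDR = 0.188). The other tested members, MIR100, MIR125A and MIR125B2, were between -0.08 and 0.41 with FDR between 0.517 and 0.888, and MIR125A turned from 0.41 to -0.11 with total counts. Over all alternatives MIR100 went down to -0.60 and MIR125B2 to -0.59, with FDR of at least 0.0893 and 0.154.
Rows that resemble ribosomal RNA moved with treatment in the same libraries. The 4 rows listed as such, MIR663A the most abundant, took between 0.156% and 0.247% of each DMSO library, between 1.77% and 2.13% in A375 in dabrafenib and between 0.918% and 0.980% in A375-BIR in dabrafenib. Without these rows MIR99B remained called and MIR125B1 was called as well, at -0.58 (FDR = 0.0476). Their part in the response of the members was otherwise not tested.

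In A375-BIR, dabrafenib gave 0 called members, against 20.6% of tested precursors called. No member had an unadjusted p under 0.05 in edgeR (0 of 5), and DESeq2's Wald test called 0 as well. The log2 fold changes of the 5 tested members were between -0.12 and 0.09, and their signs changed with settings. Without A375-BIR in DMSO replicate 3, MIR125A was at 0.73 and was called (FDR = 0.0269; between 0.0269 and 0.993 over 22 alternatives), since the remaining DMSO libraries were at 1051 and 1212 CPM and the dabrafenib libraries at 1436 to 2513 CPM.
The difference in response between the lines was called for 0 members, against 3.43% of tested precursors, or 6 of 175. Of these 6, 3 were rows that resemble ribosomal RNA (MIR663A, MIR3648-1 and MIR3648-2), and without such rows 0 of 171 were called. In edgeR 1 member, MIR99B, had an unadjusted p under 0.05, at 1.05 ± 0.41 (FDR = 0.19), and DESeq2's Wald test called 0. The response of MIR99B in A375 is therefore not shown to differ from that in A375-BIR, where it was at -0.03 ± 0.28.

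**Figure D4:**
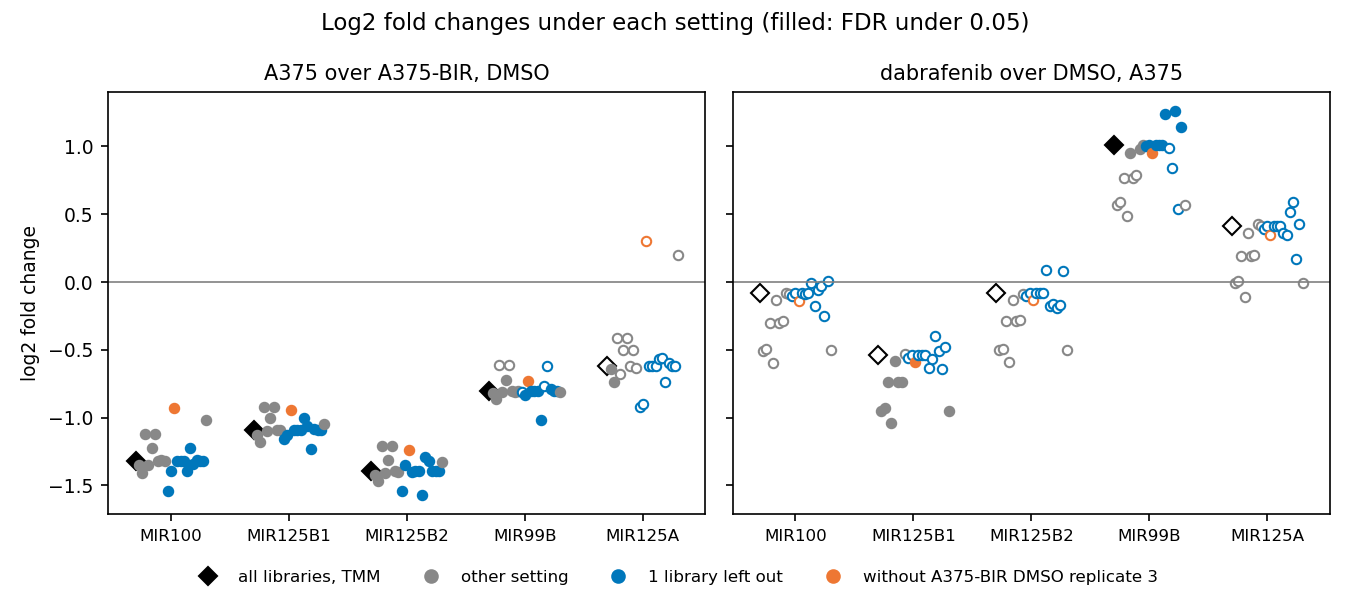
Log2 fold change (vertical axis) of the tested members for A375 over A375-BIR in DMSO and for dabrafenib over DMSO in A375, with all libraries (diamonds), under each other setting (grey), with each library left out (blue) and without A375-BIR in DMSO replicate 3 (orange). Filled symbols have an FDR under 0.05. MIR100, MIR125B1 and MIR125B2 are below 0 and called under all settings in DMSO, MIR125A turns to 0.30 without that library, and for dabrafenib the calls of MIR99B and MIR125B1 depend on the setting.

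Among the other genes of these transcripts and families, all 12 let-7 precursors were tested. Over both treatments, 11 were called between the lines, 4 lower and 7 higher in A375, with a median log2 fold change of 0.59 beside -0.11 for all tested precursors. The 4 lower ones were the let-7a precursors MIRLET7A1, MIRLET7A2 and MIRLET7A3, which share reads, and MIRLET7C, so both cluster partners called were lower, as MIR100, MIR125B1 and MIR125B2 were. MIRLET7B, higher in A375 at 1.08 ± 0.11 (FDR = 1.22e-06), and MIRLET7D, at 1.05 ± 0.13 (FDR = 1.42e-05), lie outside the 3 clusters.
MIR10A and MIR10B, from the HOX gene clusters, are sequence relatives of miR-99 and miR-100 with another seed.
miR-10a-5p: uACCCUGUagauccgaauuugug
MIR10A was lower in A375 over both treatments at -0.54 ± 0.13 (FDR = 0.00347). It was called in DMSO (-0.81 ± 0.19, FDR = 0.00252, in 3 of 3 libraries) and not in dabrafenib (-0.27 ± 0.19, FDR = 0.289). In dabrafenib too, 3 of 3 A375 libraries lay below those of A375-BIR, with total counts at 1669 to 1975 against 2922 to 3023 CPM. MIR10B was at 0.24 ± 0.13 over both treatments and not called (FDR = 0.128). MIR10B turned to -0.01 with total counts and was called higher with DESeq2's size factors (0.34, FDR = 0.0145; between 0.0145 and 1 over 21 alternatives). By treatment MIR10B was at -0.06 ± 0.18 in DMSO (FDR = 0.825) and 0.55 ± 0.19 in dabrafenib (FDR = 0.026, in 3 of 3 libraries). The latter depends on the scaling. With total counts the lines overlapped in dabrafenib, at 2884, 3823 and 3301 CPM in A375 and 2994, 3456 and 3130 CPM in A375-BIR. With dabrafenib in A375 both were higher, MIR10B 2.83-fold (FDR = 2.87e-05) and MIR10A 1.86-fold (FDR = 0.00311), each in 3 of 3 libraries. With total counts, MIR10A was at a log2 fold change of 0.39 there and not called (FDR = 0.167; between 0.00137 and 0.29 over its alternatives). In A375-BIR, MIR10B was higher with dabrafenib at 0.89 ± 0.19 (FDR = 0.00387, in 3 of 3 libraries), a call lost with no filter on low counts (FDR = 0.0674, the highest of 22 alternatives).

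Outside the 6 members, the precursors most like each member in log2 CPM over the 12 libraries were found by Pearson correlation, as a description of libraries that also share line, treatment and depth. MIR100 was most like MIR622 (r = 0.93) and MIR3929 (r = 0.92), MIR125B1 like MIR182 (r = 0.96) and MIR222 (r = 0.96), and MIR125B2 like MIR27A (r = 0.97) and MIR1269A (r = 0.94), each over 12 libraries. MIR622 and MIR3929 had 0 counts in all 3 libraries of A375 in dabrafenib and 6.6 and 5 counts in all in A375 in DMSO, so their r is set largely by values at the floor. MIR1269A was also near the floor in A375, with 6 counts in all in DMSO and 3 in dabrafenib, which limits its r as well. All of these precursors were lower in A375 over both treatments, for example MIR222 at -1.94 ± 0.11 (FDR = 1.36e-09). MIR125A was most like MIR92B (r = 0.87) and MIR23A (r = 0.86), and MIR99B like MIR192 (r = 0.81) and MIR10A (r = 0.70). The r values of MIR125A include A375-BIR in DMSO replicate 3, at 4066 CPM, and were not computed without it. MIR192 had few counts, 10 to 12 a library in A375 in DMSO and 4 to 13 in A375 in dabrafenib. Among the members themselves, MIR100 went with MIR125B2 on another chromosome (r = 0.96) and with MIR125B1 of its own cluster (r = 0.94). MIR125B2 and MIR125B1 share divided reads, so the r of MIR125B2 is not that of chromosome 21 alone. The part of the shared reads in it was not tested. MIR99B and MIR125A, which lie within 728 bases, had r = 0.41.

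Marker lists were read to see which cells the libraries hold. Of 7 precursors of the melanocyte lineage and melanoma, 6 had a count and MIR514A1 had none; together they took between 2.71% and 3.14% of A375 libraries in DMSO, 1.58% to 1.90% in dabrafenib, and between 0.116% and 0.279% of A375-BIR libraries, with MIR146A the most abundant. The sum is mostly that of MIR146A, whose mean was 24296 CPM in A375 in DMSO, 14834 in A375 in dabrafenib, 1117 in A375-BIR in DMSO and 1653 in A375-BIR in dabrafenib. MIR204 was higher in A375 as well, at 1707, 6100.5, 134 and 304 CPM in the same order. MIR509-1, MIR509-2 and MIR509-3 had means from 378 to 391 CPM in A375 in DMSO and from 665 to 698 CPM in A375 in dabrafenib. In A375-BIR their means were from 12.3 to 49.2 CPM. MIR211, with 0 to 9 counts a library, had means of 20.6, 181, 20.1 and 74.3 CPM, with no such difference between the lines in DMSO (7 counts in A375 and 8 in A375-BIR). In A375, MIR204, MIR211 and the MIR509 precursors had higher means in dabrafenib than in DMSO, opposite to the sum. MIR146A, MIR204 and the MIR509 precursors thus moved with line in the opposite direction to MIR100, MIR125B1 and MIR125B2, and their part in that difference was not tested. Epithelial markers took at most 0.0273% of a library, with MIR205 the most abundant and MIR429 and MIR203A at 0. In A375 they took 0.00518% to 0.00985% in DMSO and 0.0135% to 0.0155% in dabrafenib, while in A375-BIR the treatments overlapped. Muscle markers took at most 0.00690%. Blood markers took at most 0.0292%, with MIR451A at 0 and MIR150 the most abundant. Their median was 0.00326% in A375-BIR in DMSO against 0.0210% in A375-BIR in dabrafenib. In A375 the medians were 0.00647% in DMSO and 0.0189% in dabrafenib, with overlapping libraries. MIR122 of liver and all 3 MIR124 precursors of neurons were at 0 in every library. Markers of fibroblasts and endothelium, MIR143 the most abundant, took between 0.0181% and 0.111%, with 0.0290% to 0.0326% in A375-BIR in DMSO and 0.0684% to 0.111% in A375-BIR in dabrafenib. The part of these lists in the response to dabrafenib was not tested.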

How the data were processed

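The authors trimmed reads of 12 small RNA libraries, removed those from ribosomal RNA and phiX, and assigned the rest to Ensembl genes (hg38) with RSEM 1.2.25; the deposited values are expected counts per precursor, not normalized. Of 1881 rows, 1852 were named through GENCODE v44, and 819 had at least 1 expected count in a library. Replicate libraries differed by more than sampling noise (chi-square over its degrees of freedom from 2.50 to 32.1). Counts were rounded, filtered with filterByExpr (175 kept), scaled by TMM and tested with the quasi-likelihood F-test of edgeR 4.0.16 (R 4.3.3), 1 mean per line and treatment, Benjamini-Hochberg adjustment, threshold 0.05. Fold changes are A375 over A375-BIR or dabrafenib over DMSO. The biological coefficient of variation was 21.6%. The fit and the permutation test were tested on simulated data. Per-library log2 ratios had 0.5 added to each count. The scale of levels per base uses mature lengths of 22 to 24 bases, and the order by CPM was the same in each group.

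The members and lists were chosen with earlier results of these data known. Genes named are the 6 members, the let-7 and miR-10 precursors and the 2 precursors outside the members most like each tested member. Also named are the most abundant precursor by mean over the 12 libraries and marker lists (melanocyte lineage, epithelium, blood, liver, muscle, neurons, fibroblasts and endothelium, and rows that resemble ribosomal RNA). Of 6 such rows listed, 4 were found. Mature arms were matched by name in RefSeq.

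Results were recomputed with a looser filter or none, with scaling by total counts or by size factors of DESeq2 1.42.0, no rows resembling ribosomal RNA, DESeq2's Wald test, only the libraries compared, the replicate number as a block, summed miR-125b copies, another pseudocount, single treatments and each library left out. In DMSO, deviations from the group mean correlated between lines for libraries with the same number (0.105, 0.219 and 0.303), and no other pair of groups had all 3 over 0.1. The labels do not say what a number stands for. Ratios, tables and figures used Python 3.11.15, numpy 2.4.6, pandas 2.3.3 and matplotlib 3.10.9.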

Additional observations from a re-analysis of the deposited data

Results flagged for a closer look

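The let-7c precursor MIRLET7C, between MIR99A and MIR125B2, responded differently to dabrafenib in the lines by the test of the difference itself, by 1.25 ± 0.22 on the log2 scale (FDR = 0.0104). It was among 6 of 175 precursors called, of which 3 resemble ribosomal RNA (MIR663A, MIR3648-1 and MIR3648-2); without such rows 0 of 171 were called. It had 2723, 2858 and 2609 CPM in A375 in DMSO and 5465, 6986 and 5900 CPM in dabrafenib, an increase of 1.17 ± 0.16 (FDR = 6.05e-05), and was at -0.08 ± 0.15 in A375-BIR (FDR = 0.787). Without the rows that resemble ribosomal RNA the difference was 1.17 with FDR = 0.05, no longer called, and scaling by total counts gave 0.76 (FDR between 0.00133 and 0.05 over 21 alternatives). The expected counts of MIRLET7C were fractional, such as 227.4 in A375 in DMSO replicate 1, so some reads were divided with other rows. The mean of MIRLET7B was 178770 CPM in A375 in DMSO and 345586 in A375 in dabrafenib. The part of divided reads in the response of MIRLET7C was not tested. MIR125B2, in the same cluster, had a difference in response of -0.05 ± 0.36 (FDR = 1).
MIRLET7B was called by the same test, at 0.89 ± 0.21 (FDR = 0.0281), and lost the call under several settings, for example with DESeq2's size factors (0.77, FDR = 0.172) or total counts (0.41, FDR = 0.188; between 0.0199 and 0.315 over 21 alternatives). With single libraries left out it was between 0.71 and 1.03, and the call held only without A375 in DMSO replicate 2, A375-BIR in DMSO replicate 3 or A375-BIR in dabrafenib replicate 3.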

How the results depend on the processing

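MIR100, MIR125B1 and MIR125B2 were lower in A375 and called in all 3 comparisons of the lines under every alternative run, with log2 fold changes between -2.16 and -0.92. Depth limits MIR99A, at 0 to 10 counts a library. The calls of MIR99B are lost when certain single libraries are left out, and also with all libraries: in DMSO with DESeq2's size factors and Wald test, and for dabrafenib in A375 with these, either other filter, total counts or only the A375 libraries. The direction of MIR125A turns without single libraries.

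Of 873 recomputed log2 fold changes, 770 kept direction and side of the threshold, 36 lost and 18 gained a call, and 49 changed sign. Causes of these changes were not tested. The count of members called between the lines was 3 to 4 over both treatments. There 105 of 175 tested precursors were called, against 134 of 538 with the looser filter and 128 of 839 with none. In DMSO the count was 3 to 5, beside 81 of 175, 103 of 538 and 96 of 839 in the same order. For dabrafenib in A375 the count was 2 without the rows that resemble ribosomal RNA, where 39 of 171 precursors were called. It was between 0 and 2 with single libraries left out (44 of 175 precursors with all libraries). For dabrafenib in A375-BIR it was between 0 and 1 (36 of 175 precursors with all libraries). The ratio of MIR125A to the miR-125b precursors was 0.83 in DMSO alone (exact permutation p = 0.4) and 1.51 in dabrafenib alone (p = 0.1, the smallest exact permutation p of 3 against 3). That of MIR99B to MIR100 was 0.42 and 1.64. The ratio of MIR99A to MIR100 was -0.13 in DMSO alone, and that of MIR125B2 to MIR125B1 was 0.18 in dabrafenib alone.

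With the replicate block, the first of these ratios was 1.17 with an exact permutation p of 0.0625, and MIR125A for dabrafenib in A375-BIR was at 0.06. The block changed no other call of a member. With the filter of at least 1 CPM, MIR99B between the lines in dabrafenib was at -0.01 and MIR125A for dabrafenib in A375 at -0.01. For dabrafenib in A375-BIR, that filter gave -0.14 for MIR100 and -0.18 for MIR125B1, and no filter gave -0.19 and -0.21. With that filter and without A375-BIR in DMSO replicate 3, chosen after seeing the data, MIR125A was at 0.20 between the lines in DMSO, -0.01 and 0.50 for dabrafenib in A375 and A375-BIR and -0.51 for the difference in response, MIR99B at -0.01 between the lines in dabrafenib and MIR125B1 at -0.10 for dabrafenib in A375-BIR. With total counts, MIR99B was at -0.26 between the lines in dabrafenib, MIR125A at -0.11 for dabrafenib in A375 and MIR10B at -0.01 between the lines over both treatments. For dabrafenib in A375-BIR, MIR99B and MIR125B2 were both at 0.01 without the rows that resemble ribosomal RNA and at 0.04 and 0.05 in the fit of only these libraries, and MIR125B1 was at -0.03 with DESeq2's size factors and with its Wald test.

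With each library left out in turn, MIR125A was between -0.54 and 0.11 over both treatments, -0.92 and 0.30 in DMSO and -0.33 and 0.11 in dabrafenib, and MIR99B in dabrafenib between -0.23 and 0.43. For dabrafenib in A375, MIR100 was between -0.25 and 0.01 and MIR125B2 between -0.19 and 0.09. For dabrafenib in A375-BIR, MIR99B was between -0.16 and 0.04, MIR100 between -0.10 and 0.41, MIR125A between -0.40 and 0.73, MIR125B1 between -0.09 and 0.19 and MIR125B2 between -0.11 and 0.07. For the difference in response, MIR100 was between -0.55 and 0.01, MIR125A between -0.38 and 0.81 and MIR125B2 between -0.23 and 0.12. The ratio of MIR99A to MIR100 was between -0.14 and 0.58 and that of MIR125B2 to MIR125B1 between -0.1834 and 0.0564.

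Over all tested precursors, the split of calls moved with the scaling. In DMSO, 28 were higher and 53 lower in A375 with TMM, and 38 and 43 with DESeq2's size factors. In dabrafenib, 42 and 39 became 24 and 59 with total counts, and over both treatments 45 and 60 became 35 and 72 with total counts and 54 and 50 with DESeq2's size factors. For dabrafenib in A375, 32 higher and 12 lower became 23 and 23 with DESeq2's size factors, 18 and 44 with total counts, 19 and 34 with the looser filter and 20 and 27 with no filter. For dabrafenib in A375-BIR, 23 and 13 became 23 and 20 with DESeq2's size factors, and for the difference in response 5 and 1 became 3 and 5 with total counts. The median log2 fold change moved by -0.24 over both treatments and by -0.48 between the lines in dabrafenib with total counts, and by 0.17 between the lines in DMSO with DESeq2's size factors.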
